A study of Mus musculus with 20 samples.

Results

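The Egr transcription factors (Egr1, Egr2, Egr3 and Egr4) and their corepressors Nab1 and Nab2 were followed in cultured mouse dorsal root ganglion (DRG) neurons at rest and during 2 patterns of action potential firing. The members were taken by gene name from the annotation that came with the arrays, which gave 7 probes of 39429, for 6 of the 30222 gene names. Egr1, Egr2, Egr4, Nab1 and Nab2 passed the filter on dim and non-uniform spots and entered the test over 18744 gene names. Egr3, and the other of the 2 probes of Nab2, did not pass it in any condition and are described from their signals.

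Egr proteins are zinc finger transcription factors that bind GC-rich sites, and their genes are among the immediate early genes, which are transcribed within minutes of a stimulus without new protein synthesis. In neurons they respond to depolarization and calcium entry, through serum response factor (SRF) with its Elk partners and through CREB. Nab1 and Nab2 have no DNA-binding domain of their own. They bind Egr1, Egr2 and Egr3 and mostly repress the genes these bind, and Nab2 is itself a target of Egr proteins, so that the corepressor is part of a feedback loop. Egr4 lacks the domain through which Nab proteins bind.

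The neurons came from NIH Swiss mouse embryos at embryonic day 13.5 and were grown in chambers with side compartments, in medium holding horse serum at 5%, with 13 μg/ml fluorodeoxyuridine against dividing cells. The labels call the cells DRG neurons, while the growth protocol names the spinal cord as the source. Serum was withdrawn on the evening before. The axons were driven by pulses of 6 V and 0.2 ms, either 18 action potentials every 1 min (18/1) or 90 every 5 min (90/5), so that both patterns delivered the same number, for 2 hr or 5 hr. Unstimulated neurons were handled in the same way with no current. Each of the 5 conditions had 4 samples, hybridized as Cy3 and Cy5 pairs to 2 arrays (arrays 1 and 2 for unstimulated neurons, 3 and 4 for 18/1 2 hr, 5 and 6 for 18/1 5 hr, 7 and 8 for 90/5 2 hr, 9 and 10 for 90/5 5 hr). Each condition pooled 5 cultures, and p-values measure the spread between these samples, which may be partly technical.

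All 14 markers of sensory neurons were well above background in every unstimulated sample, as were 10 of 11 markers of Schwann and satellite glia, 7 of 7 of fibroblasts and 5 of 5 of macrophages. Of the 8 spinal cord markers, 2 were well above background in all 4 unstimulated samples, and Olig2, Mnx1, Gad1 and Gad2 in none of them. The median spot was 2.27 to 2.94 times its background on slide 1 (arrays 1 to 4), 3.64 to 10.4 times on slide 2 (arrays 5 to 8) and 2.66 to 4.91 times on slide 3. On the arrays of 18/1 5 hr, 5319 to 14642 of the 43020 spots other than controls were marked as non-uniform, against 6 to 85 on slides 1 and 3. Array 8 of 90/5 2 hr also had 3138 and 6476 such spots, and array 7 had 45 and 139. The samples of 18/1 5 hr correlated with each other at r of 0.933 to 0.993, over genes, and those of 90/5 2 hr at 0.957 to 0.993, against 0.990 to 0.995 for unstimulated neurons. Only 18/1 2 hr with unstimulated neurons, and 90/5 2 hr with 18/1 5 hr, shared a slide. For all other comparisons slide and condition cannot be told apart.

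By each member's largest difference from unstimulated neurons in any condition, Egr4 and Egr1 led the 5 members tested, and Nab2 came next. At 18/1 5 hr the log2 difference of Nab2 (2.00) was larger than that of Egr1 (1.00). Egr4 passed the filter in 2 of 4 unstimulated samples, so it entered the test through stimulated conditions, where it was high. It was called higher than at rest in 3 of the 4 stimulated conditions, by 7.59-fold to 8.79-fold, and these calls were kept with no filter. At 18/1 2 hr it was 2.78-fold higher, in 4 of 4 samples, a difference called with the replicate number as a block and not in the fit of all 20 samples. Egr1 was called higher at 90/5 2 hr, by 6.52-fold, and Nab2 at 18/1 5 hr, by 4.00-fold. No difference of Egr2 or Nab1 from unstimulated neurons was called. A difference was called where limma gave an adjusted p under 0.05 over all gene names. By this rule 0 of the 5 members were called for 18/1 2 hr. Both 18/1 5 hr and 90/5 2 hr had 2 members called, and 90/5 5 hr had 1. At 18/1 2 hr 2 members were under 0.05 before adjustment, and a test of the kind the study's methods name (unequal variances, run here on linear values, and called the methods' test below) also called 2, beside 1.57% of all gene names. With the replicate number as a block, which takes the samples of these 2 conditions as paired, limma called 2 as well, Egr1 and Egr4. Beside them, 0.0854% of all gene names were called in the fit of 12 samples and 0.224% in that of 8. The fit of 12 also blocked 90/5 5 hr by number, although it shared only numbers with the other conditions. Of all gene names, 0.0213% (18/1 2 hr), 36.8% (18/1 5 hr), 5.06% (90/5 2 hr) and 0.149% (90/5 5 hr) were called, in either direction, so that 18/1 5 hr differed from rest over much of the array. At 18/1 5 hr the median of all gene names lay 0.18 below unstimulated neurons on the log2 scale, and the members' differences there are to be read against it. The mRNA was measured in whole cultures, where fewer cells of a type and less RNA per cell cannot be told apart.

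**Figure D1:**
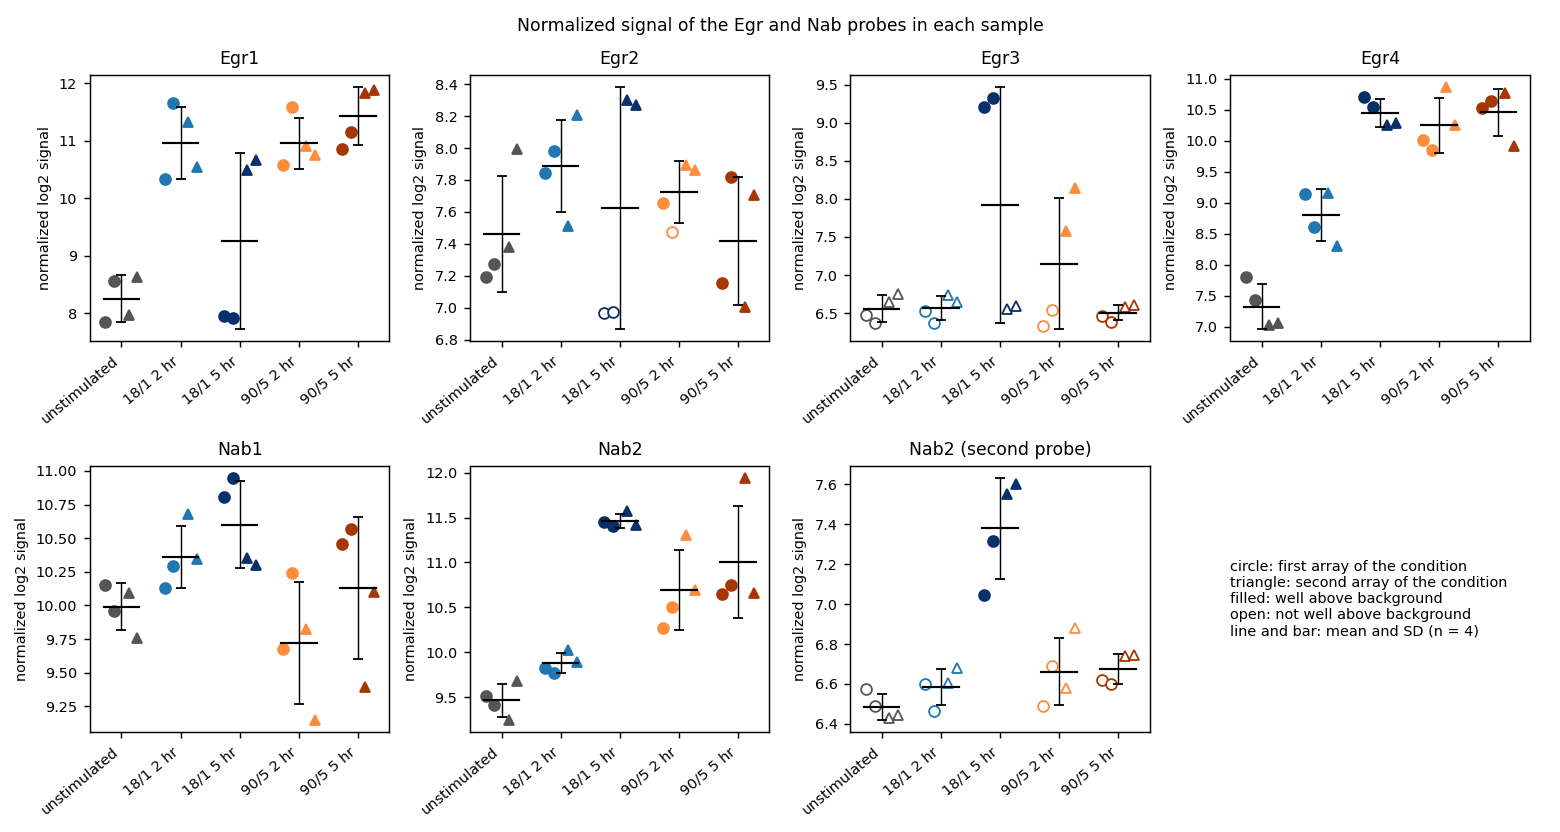
Normalized log2 signal of each probe of the 6 members in each sample of the 5 conditions. Circles and triangles are the samples of the first and the other array of a condition, open symbols were not well above background, and lines with bars give the mean and SD of 4 samples. Egr4 and the brighter probe of Nab2 lay above all unstimulated samples in every stimulated sample, while Egr1, Egr2 and Egr3 differed between the 2 arrays of 18/1 5 hr.

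Egr1 (also Zif268 or Krox-24) is the most widely studied member in neurons. Its probe lies on chromosome 18 and was well above background in all 20 samples. The 4 unstimulated samples had log2 signals of 7.84, 8.56, 7.97 and 8.63. At 18/1 2 hr the signals were 10.32, 11.65, 11.32 and 10.54. Every stimulated sample at this time was therefore above every unstimulated one. The samples of 90/5 2 hr, at 10.58, 11.59, 10.91 and 10.75, and those of 90/5 5 hr, at 10.85, 11.15, 11.83 and 11.88, were also all above the unstimulated range.

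The mean Egr1 signal rose by 2.71 ± 0.66 (log2 difference ± SE, n = 4) at 90/5 2 hr, with an adjusted p of 0.0222 in limma. At 18/1 2 hr the difference was as large, 2.71 ± 0.66, and at 90/5 5 hr it was 3.18 ± 0.66, but the adjusted p-values were 0.99997 and 0.0735 and neither was called. The unadjusted p-values of these 2 differences were 0.000591 and 0.000118. With the replicate number as a block, the adjusted p at 18/1 2 hr was 0.00844 in the fit of 12 samples and 0.00315 in that of the 8 samples of these 2 conditions. When only the conditions compared were fitted, with no such block, Egr1 was called at 18/1 2 hr (adjusted p = 0.0107) and at 90/5 5 hr (adjusted p = 0.00313), with the same differences. Over all alternatives the adjusted p ran from 0.00315 to 0.999998 at 18/1 2 hr and from 0.000525 to 0.999959 at 90/5 5 hr, with a call in 8 of 48 and in 12 of 46. Leaving out array 5 or array 6 alone gave the call at both, with an adjusted p of 0.0149 and 0.0156 at 18/1 2 hr and of 0.000862 and 0.000808 at 90/5 5 hr, and at 90/5 5 hr so did leaving out array 7 or the Cy5 sample of array 5. The call at 90/5 2 hr was kept in 36 of 44 and lost, among others, without array 1, 2, 8 or 10 or replicate 4 of 90/5 5 hr, with the adjusted p between 0.000549 and 0.261.

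The 2 arrays of 18/1 5 hr disagreed on Egr1. On array 5 the signals were 7.95 (Cy3) and 7.91 (Cy5), within the unstimulated range, and on array 6 they were 10.49 and 10.67. The mean of array 5 was 0.32 below that of unstimulated neurons on the log2 scale (-0.32), and the mean of array 6 was 2.33 above it. The arrays thus differed by 2.65, and 1.34% of all gene names differed at least as much between arrays 5 and 6, where the median absolute difference was 0.50. Neither spot of either array was marked as non-uniform or saturated. With all 4 samples the difference from unstimulated neurons was 1.00 ± 0.66 and was not called (adjusted p = 0.242). Without array 5 it was 2.33 ± 0.51 and was called (adjusted p = 0.00258), and without array 6 it was -0.32 ± 0.50 (adjusted p = 0.615). These are the lowest and the highest values over the 43 alternatives.

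The comparisons of Egr1 that involve 18/1 5 hr followed the same split. Egr1 was higher at 90/5 5 hr than at 18/1 5 hr by 2.18 ± 0.66 (adjusted p = 0.0143), in 4 of 4 samples, where 38.2% of all gene names were called. Without array 5 this was 0.85 (adjusted p = 0.197), without array 6 it had an adjusted p of 3.26e-05, and without array 10 it was 1.75 (adjusted p = 0.166). From 2 hr to 5 hr of 18/1, Egr1 fell by 1.71 (SE 0.66, adjusted p = 0.0497), a call made in 15 of 43 alternatives and with values from -3.03 without array 6 to -0.38 without array 5. At 2 hr the patterns gave nearly equal means of 10.96 and 10.96, with a 95% interval of the difference from -1.38 to 1.37. The order of the mean Egr1 signals was 90/5 5 hr (11.43), 18/1 2 hr, 90/5 2 hr, 18/1 5 hr (9.25) and unstimulated (8.25), and the first 3 did not differ beyond their spread. By array 6 alone 18/1 5 hr kept this place, and by array 5 alone it came below unstimulated neurons.

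**Figure D2:**
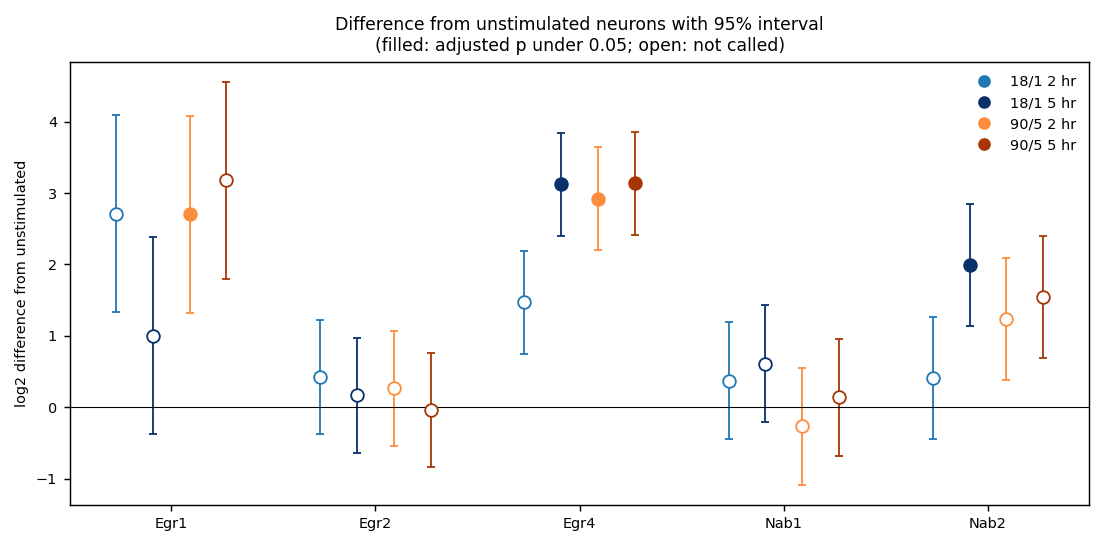
Log2 difference of each stimulated condition from unstimulated neurons for the 5 members in the fit, with its 95% interval from limma. Filled points had an adjusted p under 0.05. Egr4 was called in 3 conditions, Egr1 at 90/5 2 hr and Nab2 at 18/1 5 hr, and the points of Egr2 and Nab1 all lay between -0.27 and 0.61.

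Egr4 is found mainly in the nervous system. Its probe, at chr6:85461153-85461212 of mm9 on the minus strand, was well above background in all 20 samples. Unstimulated neurons gave log2 signals of 7.80, 7.43, 7.03 and 7.06. The signals at 18/1 2 hr were 9.14, 8.61, 9.16 and 8.30, above the unstimulated range and below all other stimulated samples. Array 5 of 18/1 5 hr gave 10.71 and 10.54, and array 6 gave 10.25 and 10.29. Here the 2 arrays differed by -0.36 (array 6 minus array 5), less than 61.5% of gene names did. The values at 90/5 2 hr were 10.02, 9.85, 10.87 and 10.26, and those at 90/5 5 hr were 10.53, 10.64, 10.77 and 9.92. All 16 stimulated samples lay above all unstimulated ones.

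Egr4 rose by 3.12 ± 0.34 at 18/1 5 hr (adjusted p = 8.25e-06), by 2.92 ± 0.34 at 90/5 2 hr (adjusted p = 6.71e-05) and by 3.14 ± 0.34 at 90/5 5 hr (adjusted p = 7.28e-05), each in 4 of 4 samples. These calls were kept in 42 of 42, 42 of 43 and 44 of 45 alternatives, and the 2 losses were under the methods' test after adjustment. Over the alternatives the differences ran from 2.44 to 3.43, from 2.61 to 3.24 and from 2.85 to 3.45 in this order. At 18/1 2 hr the difference of 1.47 ± 0.34 was not called (adjusted p = 0.947, unadjusted p = 0.000408), in a comparison within slide 1. With the replicate number as a block it was called, with an adjusted p of 0.0243 in the fit of 12 samples and of 0.0149 in that of the 8 samples of these 2 conditions. It was called in 6 of 47 alternatives, among them the fit of only these 2 conditions with no such block (adjusted p = 0.036), and over all alternatives its adjusted p ran from 0.00936 to 0.999998.

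Egr4 differed between 90/5 and 18/1 at 2 hr, conditions that lay on different slides, so that pattern and slide cannot be told apart. The signal was higher at 90/5 2 hr than at 18/1 2 hr by 1.45 ± 0.34 (adjusted p = 0.0222), in 4 of 4 samples, where 3.95% of all gene names were called and Egr4 was the only 1 of the 5 members. The call was kept in 34 of 43 alternatives and lost, among others, without array 1, 3, 4 or 8, replicate 4 of 18/1 2 hr or replicate 4 of 90/5 5 hr (adjusted p from 0.000372 to 0.249). At 5 hr the means were 10.46 for 90/5 and 10.45 for 18/1, with a 95% interval of the difference from -0.71 to 0.74. With median centring in place of loess and Aquantile that difference was 0.97 and was called (adjusted p = 0.0489, beside a range over all alternatives up to 0.989). Within 18/1, Egr4 rose by 1.65 ± 0.34 from 2 hr to 5 hr (adjusted p = 0.00142), and within 90/5 the difference was 0.21 ± 0.34 (adjusted p = 0.783). These changes with time differed between the patterns by -1.44 ± 0.49 (90/5 minus 18/1, adjusted p = 0.026), a test in which 38.4% of all gene names were called. Within each pattern the 2 times also lay on different slides. With median centring in place of loess and Aquantile, the rise within 18/1 was 0.90 (adjusted p = 0.0713) and the difference of the changes -0.52 (adjusted p = 0.483). The adjusted p-values over all alternatives ran from 1.62e-05 to 0.0713 and from 0.00102 to 0.483.

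Nab2 was represented by 2 probes, for 2 RefSeq transcripts. The opening bases of each, as deposited with the arrays, are given because the probes differed in signal.
Nab2 probe for NM_008668, first 30 of 60 bases: cctgtcgaacacttagcgtgtctttctttt
Nab2 probe for NM_001122895, first 30 of 60 bases: agctgaataagaagctggcgcggagcgtgg
The probes lie at chr10:127098009-127098068 and chr10:127101413-127101472 of mm9, on the minus strand, and 35% and 55% of their bases are G or C. The probe for NM_008668 was well above background in all 20 samples and stands for Nab2 in the test. The probe for NM_001122895 was well above background in the 4 samples of 18/1 5 hr alone, and all 4 of those spots were marked as non-uniform.

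By the brighter probe, unstimulated neurons had Nab2 signals of 9.51, 9.42, 9.24 and 9.68, and neurons at 18/1 2 hr had 9.82, 9.77, 10.03 and 9.89. The signals at 18/1 5 hr were 11.45 and 11.40 on array 5 and 11.57 and 11.41 on array 6. On this gene the 2 arrays of 18/1 5 hr lay within 0.07 of each other. The signals at 90/5 2 hr were 10.27, 10.50, 11.31 and 10.698, and those at 90/5 5 hr were 10.65, 10.75, 11.94 and 10.66. All 16 stimulated samples lay above all unstimulated ones, by narrow margins at 18/1 2 hr.

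Nab2 rose by 2.00 ± 0.41 at 18/1 5 hr (adjusted p = 0.00114), in 4 of 4 samples, and was called in 43 of 43 alternatives, with values from 1.24 to 2.15. The differences of 1.23 ± 0.41 at 90/5 2 hr (adjusted p = 0.0884), 1.54 ± 0.41 at 90/5 5 hr (adjusted p = 0.339) and 0.41 ± 0.41 at 18/1 2 hr (adjusted p = 0.99997) were not called. At 90/5 2 hr Nab2 was called in 9 of 44 alternatives, among them leaving out array 5, 6, 7 or 10 or replicate 3 of 90/5 5 hr (adjusted p from 0.0019 to 0.481), and at 90/5 5 hr in 3 of 46 (adjusted p from 0.00298 to 1). Within 18/1 it rose by 1.58 ± 0.41 from 2 hr to 5 hr (adjusted p = 0.0058). That rise was 0.83 (adjusted p = 0.07) with median centring alone, and its call was also lost without array 3 or 4. The mean signals fell in the order 18/1 5 hr (11.46), 90/5 5 hr, 90/5 2 hr (10.69), 18/1 2 hr (9.88) and unstimulated (9.46). With median centring in place of loess and Aquantile, 90/5 5 hr lay above 18/1 5 hr by 0.45 (adjusted p = 0.324), so that the head of this order depends on the scaling. None of the differences between neighbours in this order was called, although all samples of 90/5 2 hr lay above all of 18/1 2 hr and all of these above the unstimulated ones.

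The probe for NM_001122895 had, at 18/1 5 hr, signals of 7.05, 7.32, 7.55 and 7.60, against 6.43 to 6.58 in unstimulated neurons, which is at least 1.81-fold higher. In the fit of all probes without a filter its adjusted p was 0.00352, with the 4 spots at 18/1 5 hr all marked as non-uniform. In the other 3 conditions it was not well above background.

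Of the 5 members tested, 3 had all 4 samples above all unstimulated samples in each comparison with rest. These were Egr1, Egr4 and Nab2 at 18/1 2 hr, 90/5 2 hr and 90/5 5 hr, and Egr4, Nab1 and Nab2 at 18/1 5 hr. Of all gene names, 2.65%, 11.4%, 6.63% and 19.7% had their groups apart in this direction at 18/1 2 hr, 90/5 2 hr, 90/5 5 hr and 18/1 5 hr. The comparisons share the unstimulated samples. From 2 hr to 5 hr of 18/1, 3 of the 5 members were called (Egr1, Egr4 and Nab2), beside 36.3% of all gene names.

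Egr3 is an immediate early gene related to Egr1. The opening bases of its probe, which lies at chr14:70479222-70479281 of mm9 on the plus strand, are shown because its signal on 2 arrays stood apart.
Egr3 probe for NM_018781, first 30 of 60 bases: ttaccccactggagaccatcaaggccttca
It was not well above background in any sample of unstimulated neurons (log2 signals of 6.37 to 6.75), 18/1 2 hr (6.37 to 6.74) or 90/5 5 hr (6.38 to 6.60). On array 5 of 18/1 5 hr its signals were 9.21 and 9.33, or 16.1 and 24.3 times the background, and both spots were marked as non-uniform. On array 6 of the same condition they were 6.56 and 6.60 and not well above background. Array 8 of 90/5 2 hr gave 7.57 and 8.15, the latter marked as non-uniform, and array 7 gave 6.33 and 6.54. Signals well above background were thus seen on 1 array of each condition of slide 2, and array 5 was also the array on which Egr1 lay at the unstimulated level.

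Egr3 was well above background in 2 of 4 samples at 18/1 5 hr and 2 of 4 at 90/5 2 hr, and no fold over all 4 samples is given. In the fit without a filter over 30222 gene names, the difference at 18/1 5 hr was not called (adjusted p = 0.0877). It was called when array 6 was left out (adjusted p = 6.02e-05), and leaving out array 5 left no sample there that was well above background. Of the 11 comparisons of that fit, 0 called Egr3 with all arrays, and 4 had an unadjusted p under 0.05, each of which involved 18/1 5 hr.

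Egr2 (Krox-20) is best known as the factor that drives myelin genes in Schwann cells, and it is also an immediate early gene in neurons. Its probe, at chr10:67004798-67004857 of mm9 on the plus strand, was well above background in 17 of 20 samples. The signals ran from 7.19 to 7.99 in unstimulated neurons, 7.51 to 8.20 at 18/1 2 hr, 7.48 to 7.89 at 90/5 2 hr and 7.01 to 7.82 at 90/5 5 hr, and these ranges overlapped. Array 5 of 18/1 5 hr gave 6.97 and 6.97, not well above background and below all unstimulated samples, and array 6 gave 8.30 and 8.27, above all of them. The Cy5 spot was marked as non-uniform on both arrays. The differences from unstimulated neurons were 0.43, 0.16, 0.26 and -0.04 (each ± 0.38) at 18/1 2 hr, 18/1 5 hr, 90/5 2 hr and 90/5 5 hr, and none was called in any alternative. The 95% interval at 18/1 2 hr ran from -0.38 to 1.23, so that a moderate difference could not be told from the spread. Leaving out array 5 gave 0.82 at 18/1 5 hr, and leaving out array 6 left no sample there that was well above background.

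Nab1, the corepressor that many cell types express at rest, had a probe at chr1:52515132-52515191 of mm9 on the minus strand that was well above background in all 20 samples. Its signals ran from 9.76 to 10.16 in unstimulated neurons, 10.13 to 10.68 at 18/1 2 hr, 9.15 to 10.24 at 90/5 2 hr and 9.39 to 10.57 at 90/5 5 hr. Those of 18/1 5 hr were 10.81 and 10.95 on array 5 and 10.35 and 10.30 on array 6, all above the unstimulated range. The differences from unstimulated neurons were 0.37, 0.61, -0.27 and 0.14 (each ± 0.39) at 18/1 2 hr, 18/1 5 hr, 90/5 2 hr and 90/5 5 hr, and none was called by limma. At 18/1 5 hr Nab1 was called in 1 of 43 alternatives, the methods' test without adjustment, and the adjusted p over all others ran from 0.0503 to 0.785. With median centring in place of loess and Aquantile the difference at 18/1 5 hr was -0.19, so that its direction depends on the scaling. On slide 2, all 4 samples of 90/5 2 hr lay below all 4 of 18/1 5 hr, with a difference of -0.88 ± 0.39 (adjusted p = 0.154). Without array 6 that difference was called (adjusted p = 0.0311), and over all alternatives the adjusted p ran from 0.0154 to 0.848.

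Within slide 2, Nab2 also lay lower in all 4 samples of 90/5 2 hr than in all 4 of 18/1 5 hr, with a difference of -0.77 ± 0.41 (adjusted p = 0.234). With median centring in place of loess and Aquantile these differences were -0.14 for Nab1 and 0.03 for Nab2. Of all gene names, 7.35% had every sample of 90/5 2 hr below every sample of 18/1 5 hr, beside these 2 of 5 members. In this comparison 0 of 5 members were called by limma, beside 8.88% of all gene names, and 2 by the methods' test, beside 15% of them. Egr1 (at an unadjusted p of 0.0183) and Nab1 (at 0.0361) were the 2 members with an unadjusted p under 0.05. Unlike Nab1, Egr1 was higher at 90/5 2 hr, by 1.70 ± 0.66. Without array 5 this difference of Egr1 was 0.38 (adjusted p = 0.679), and without array 6 it was 3.03 and was called (adjusted p = 0.000262). Between the times of 90/5, 0 of 5 members were called by limma and 0 had an unadjusted p under 0.05, where 7.94% of all gene names were called. Between 90/5 5 hr and 18/1 2 hr, neither of which lies on slide 2, 0 members were called by limma, beside 0.117% of all gene names, and 1 by the methods' test, beside 3.51% of them. Egr4 there was higher by 1.66 ± 0.34 (unadjusted p = 0.000118, adjusted p = 0.0691) and Nab2 by 1.13 ± 0.41 (unadjusted p = 0.0125, adjusted p = 0.99986). Egr4 was called there in 12 of 45 alternatives and Nab2 in 2 of 46.

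**Figure D3:**
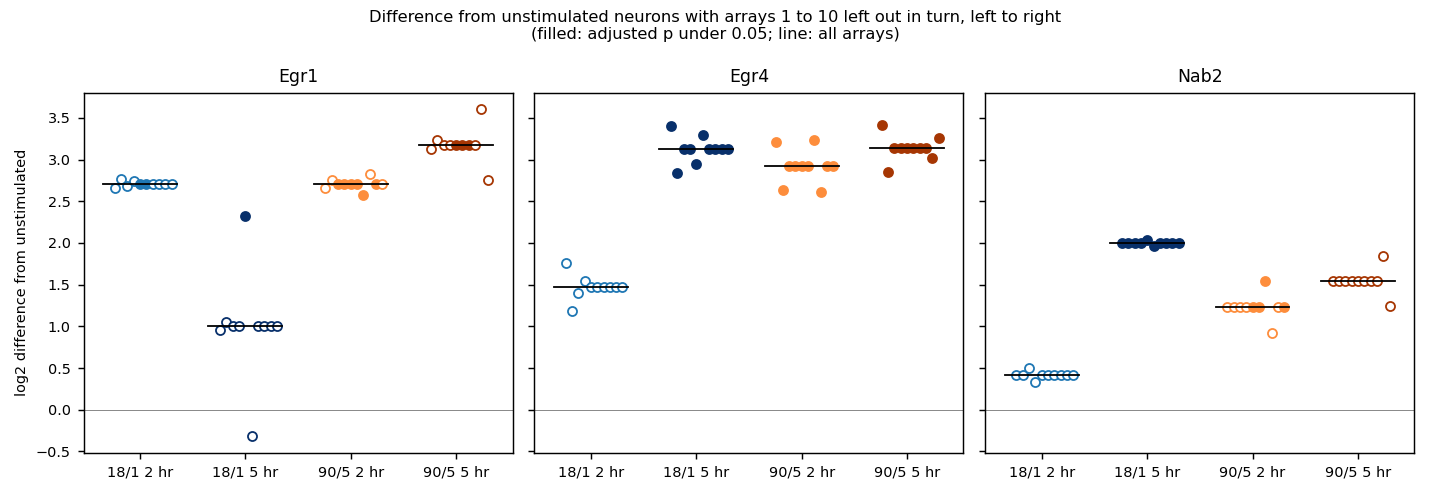
Log2 difference from unstimulated neurons for Egr1, Egr4 and Nab2 with each of the 10 arrays left out in turn, from array 1 on the left to array 10 on the right in each condition. Lines give the value with all arrays and filled points had an adjusted p under 0.05. Egr1 at 18/1 5 hr moved to 2.33 on leaving out array 5 and to -0.32 on leaving out array 6, while Egr4 stayed between 2.61 and 3.42 at 18/1 5 hr, 90/5 2 hr and 90/5 5 hr.

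Over the 20 samples, Egr4 and Nab2 followed each other with a Pearson r of 0.89, and over the 12 samples outside slide 2 with 0.88. Egr1 and Egr4 had an r of 0.47 over 20 samples and of 0.82 over 12, and Egr1 and Nab2 of 0.29 and 0.72. Egr1 and Egr2 had an r of 0.40 and 0.18, and Nab1 had an r with Nab2 of 0.08 over 20 samples and -0.26 over 12. These points share arrays and conditions and are given as a description.

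The gene names most like Egr1 over 20 samples were Csrnp1 (r = 0.94), Arc (0.90) and Gem (0.89). Over the 12 samples outside slide 2 they were Nr4a1 (0.98), Npas4 (0.98) and Rgs2 (0.96). Nr4a1 and Npas4 are activity-induced transcription factors, and Rgs2 restrains G protein signalling. The 8 samples of slide 2 were not used to choose these 3, so their levels there can be set beside that of Egr1. On array 5, where the mean of Egr1 was -0.32 relative to unstimulated neurons, Nr4a1 was 4.37 and Npas4 4.64 above them on the log2 scale, and Rgs2 2.82. On array 6 the values were 4.50, 4.96 and 4.43, beside 2.33 for Egr1. At 18/1 2 hr Nr4a1 and Npas4 were 4.53 to 4.69 above unstimulated neurons on arrays 3 and 4. Nr4a1 and Npas4 were thus about as high on array 5 as on array 6, while Rgs2 was lower on array 5, as Egr1 was. The 3 genes most like Egr1 over 20 samples, a choice that used slide 2, were also lower on array 5 than on array 6, at -0.38 and 0.52 for Csrnp1, 0.13 and 0.66 for Arc, and 0.37 and 1.54 for Gem.

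Egr4 was most like Fos (0.90), Dusp14 (0.89) and Socs3 (0.89) over 20 samples, and most like Gadd45b (0.97), Fosb (0.96) and Fosl2 (0.94) over the 12 outside slide 2. Fos, Fosb and Fosl2 are subunits of the AP-1 transcription factor. On arrays 5 and 6, Fosb was 1.35 and 0.89 above unstimulated neurons, below its values of 2.27 and 2.52 on the arrays of 90/5 5 hr, whereas Egr4 was 3.30 and 2.94 above on arrays 5 and 6 and 3.26 and 3.02 above at 90/5 5 hr. Egr2 was most like Gpx8 (0.94), Emp2 and Plscr1 over 20 samples and Gbp2 (0.94), Dock1 and Emp1 over 12.

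**Figure D4:**
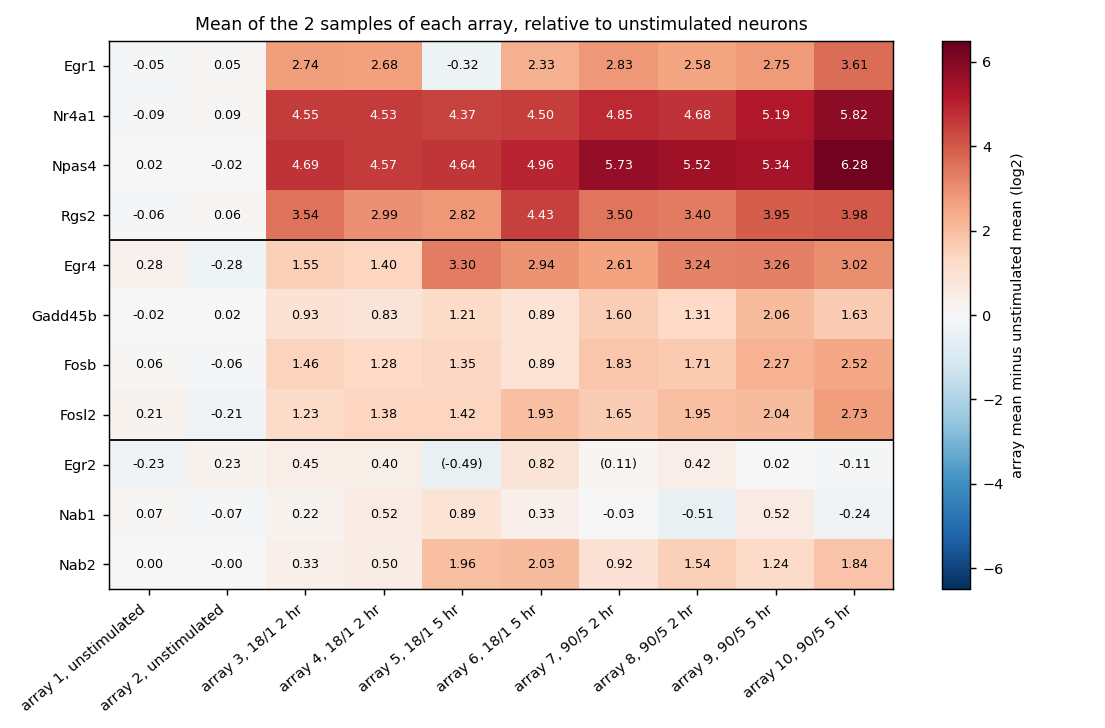
Mean log2 signal of the 2 samples of each array minus the mean of unstimulated neurons, for the 5 members tested and for the 3 genes most like Egr1 and Egr4 over the 12 samples outside slide 2. Columns are arrays 1 to 10 with their conditions. Values in brackets include a sample that was not well above background, and Egr3, which was not well above background at rest, is not drawn. On array 5 Egr1 was -0.32 while Nr4a1 was 4.37 and Egr4 3.30.

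The upstream sequences of the members are shown for those found in the promoter table of RefSeq (build GRCm38.p6), which held 4 of the 6, because Egr4 and Nab2 moved together and Egr2 and Nab1 did not move with them. Each line holds the 200 bases before the annotated start, 5′ to 3′ on the strand of the gene, with motif matches in capitals. A match on the opposite strand reads as the reverse complement, CGTCA for the short site.
Egr4, chr6:85513590-85513789, minus strand: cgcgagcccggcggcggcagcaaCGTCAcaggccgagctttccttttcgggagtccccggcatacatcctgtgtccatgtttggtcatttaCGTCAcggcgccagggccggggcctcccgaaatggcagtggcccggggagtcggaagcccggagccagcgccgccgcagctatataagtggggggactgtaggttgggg
Nab2, chr10:127666704-127666903, minus strand: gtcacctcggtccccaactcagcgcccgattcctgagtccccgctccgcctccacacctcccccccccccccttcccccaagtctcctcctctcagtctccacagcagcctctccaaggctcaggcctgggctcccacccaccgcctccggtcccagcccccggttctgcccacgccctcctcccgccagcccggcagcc
Egr2, chr10:67537669-67537868, plus strand: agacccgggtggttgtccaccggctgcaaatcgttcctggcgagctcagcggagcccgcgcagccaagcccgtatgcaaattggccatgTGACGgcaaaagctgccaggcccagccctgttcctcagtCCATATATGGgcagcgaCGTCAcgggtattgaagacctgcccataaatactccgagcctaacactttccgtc
Nab1, chr1:52500449-52500648, minus strand: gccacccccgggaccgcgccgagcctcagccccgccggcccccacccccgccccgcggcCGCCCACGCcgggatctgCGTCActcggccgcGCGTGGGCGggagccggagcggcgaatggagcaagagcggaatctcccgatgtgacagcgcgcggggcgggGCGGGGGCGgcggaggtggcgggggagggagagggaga
The search covered both strands of windows of 300 bases, 250 before to 50 after the start, for the CArG box that SRF binds, the short site TGACG and the full site TGACGTCA that CREB binds (the short one lies within the full one), and GCGNGGGCG, the site of Egr proteins. Of 32851 promoter windows, 1.63% held a CArG box, 20.8% the short site, 1.79% the full site and 5.55% the Egr site.

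In the window of Egr4 the short site was found on the strand opposite to the gene, at -177 and -109 from the start. Egr2 has 5 windows in the table, and the one printed holds a CArG box at -72 and short sites at -111 and -55. Another of the 5 held none of the sites searched, and another held a CArG box and no short site. Nab1 had the Egr site at -141, -109 and -38 and a short site at -123. The window of Nab2 held none of these letters. A match is a description of the letters in the window, and no binding was measured here.

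Among the 11 regulators of Egr transcription that were listed (SRF, the Elk factors, the SRF coactivators Mkl1 and Mkl2, Creb1 and MAP kinases), 0 were called by limma at 18/1 2 hr, 90/5 2 hr or 90/5 5 hr, where 0 had an unadjusted p under 0.05. For 18/1 5 hr 1 was called higher and 1 lower, with a median difference of -0.17 beside -0.18 for all gene names, where 36.8% of all gene names were called. These were Mkl2, which rose by 1.65 ± 0.45 (adjusted p = 0.00809), and Map2k2, the kinase upstream of the ERK kinases, which fell by 1.05 (SE 0.32, adjusted p = 0.0147).

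Of the 10 genes for proteins that bind Nab or Egr proteins, 3 were called higher and 1 lower at 18/1 5 hr, where 36.8% of all gene names were called, with a median of 0.23 beside -0.18 for all gene names. In the other 3 conditions limma called 0, and 0 had an unadjusted p under 0.05. Hcfc1, a transcriptional coregulator, rose by 1.46 ± 0.41 (adjusted p = 0.00976). The coactivator gene Crebbp rose by 1.29 ± 0.31 (adjusted p = 0.00347), and the deacetylase gene Hdac1 by 1.11 ± 0.23 (adjusted p = 0.00136). Sox10, a glial transcription factor, fell by 0.74 (SE 0.27, adjusted p = 0.0353).

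Of 16 genes described as targets of Egr proteins, Nab1 and Nab2 included, 0 were called by limma at 18/1 2 hr (1 had an unadjusted p under 0.05), 4 higher and 1 lower at 18/1 5 hr, 2 higher at 90/5 2 hr and 1 higher at 90/5 5 hr. Of the 2 at 90/5 2 hr, Fgf2 was well above background in none of the samples of either condition, so no difference is given for it. The medians were 0.13, 0.43, -0.22 and 0.06, beside 0.00, -0.18, -0.09 and -0.01 for all gene names. Of all gene names, 0.0213%, 36.8%, 5.06% and 0.149% were called in the same order. Gadd45b, a stress- and activity-induced gene, was the 1 of the 16 that was called higher in 3 conditions, by 1.05 ± 0.26 after 5 hr of 18/1 (adjusted p = 0.00415), and by 1.45 ± 0.26 and 1.84 ± 0.26 after 2 hr and 5 hr of 90/5 (adjusted p = 0.00279 and 0.00139). At 18/1 5 hr Id3, an inhibitor of helix-loop-helix factors, rose by 2.54 ± 0.73 (adjusted p = 0.0111) and the growth factor gene Pdgfb by 1.58 ± 0.53 (adjusted p = 0.0244), with Nab2 as the fourth. Tgfb1, the one that fell at 18/1 5 hr, was well above background in 0 of 4 samples there and at least 1.71-fold lower than at rest (adjusted p = 0.0313). It lies outside the rule for naming and was added after its value was seen.

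Among the genes described as targets of Egr2 in Schwann cells, limma called 0 at 18/1 2 hr, 90/5 2 hr and 90/5 5 hr, where 0, 2 and 0 had an unadjusted p under 0.05. At 18/1 5 hr 1 of the 9 in the test was called higher and 2 lower, where 36.8% of all gene names were called. There the myelin gene Mag was well above background in 0 of 4 samples and at least 1.80-fold lower than at rest (adjusted p = 0.000723). Pmp22 rose by 1.44 ± 0.53 (adjusted p = 0.0395). The summed linear signal of the 11 glial markers ran from 78950 to 89049 in unstimulated neurons and from 51356 to 107179 at 18/1 5 hr. That of the 7 fibroblast markers ran from 18081 to 46056 and from 67963 to 78036, and that of the 3 endothelial markers from 2265 to 3352 and from 582 to 850. The 8 spinal cord markers summed to 1016 to 1152 and to 1281 to 3092. Which of them were well above background was counted in unstimulated neurons alone. The summed endothelial markers were also below the unstimulated range at 90/5 2 hr (840 to 1933) and above it at 90/5 5 hr (3666 to 5961), with 1 of 3 called lower at 90/5 2 hr and 0 called at 90/5 5 hr. At 90/5 5 hr the spinal cord markers summed to 1225 to 1637, above the unstimulated range, with 1 called higher, and at 90/5 2 hr to 938 to 1313. The sums of glial, fibroblast and macrophage markers overlapped those of unstimulated neurons at 90/5 2 hr and 90/5 5 hr. Of the markers in the test at 18/1 5 hr, 3 of 10 glial ones were called lower and 1 higher, with a median of -0.43 beside -0.18 for all gene names, of which 36.8% were called. There 2 of 14 neuronal markers and 2 of 3 endothelial ones were called lower, and 1 of 7 fibroblast, 1 of 5 macrophage and 1 of 3 spinal cord markers higher. The median was 0.50 for the fibroblast markers and -1.35 for the endothelial ones. The part of these cells in the differences at 18/1 5 hr, 90/5 2 hr and 90/5 5 hr, and that of the non-uniform spots of slide 2, was not tested.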

How the data were processed

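Total RNA of 20 samples was hybridized to 10 Agilent two-colour arrays. The authors deposited, for every spot and colour, a mean intensity and a median background intensity, linear and not normalized, and per the labels made with Agilent Feature Extraction. Quality marks (saturation, non-uniformity, well above background) came with them. From these, normexp background correction (offset 50), loess within arrays with controls at weight 0, and Aquantile gave log2 signals. Spots had to reach 2 times their background and be uniform in all 4 samples of 1 condition, and the brightest probe stood for a gene name. limma 3.58.1 (R 4.3.3) fitted the 5 conditions and a dye term, treating arrays as a random block (correlation 0.64), and p-values were adjusted by Benjamini-Hochberg over 18744 names, with calls under 0.05. Figures used matplotlib 3.10.9. "At least" folds compare a group's mean with, per sample, the higher of the lowest signal well above background and the probe's own.

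The members and gene lists were chosen with earlier results of these data known. From each list the called genes with the largest differences from unstimulated neurons were named, at most 4, and for each Egr member that passed the filter the 3 gene names most correlated with it. Alternatives changed the background correction, the normalization (quantile, median centring), the filter, the choice of probes, the dye term and the array block, averaged each array, blocked on slide or replicate number, fitted only the conditions compared, dropped slide 2, or dropped each sample or array. The methods' test here is a test with unequal variances on linear values, with a fold of at least 1.4, run with and without adjustment. It is not the study's full criterion, which set a fold limit for each transcript and corrected over spots of 1 transcript, while 1.4 was the limit for its later gene lists. Leaving out 18/1 5 hr, and the replicate block over the 8 samples of unstimulated neurons and 18/1 2 hr, were added after seeing the data. The labels do not say what a replicate number marks. The deviations of same-numbered samples correlated over 0.1 in 4 of 4 pairs of unstimulated neurons with 18/1 2 hr (correlations of 0.193 to 0.493, beside -0.386 to 0.24 for 12 pairs of other numbers), and these 2 conditions were taken as paired. With 90/5 5 hr this held in 1 of 4 pairs for unstimulated neurons and 2 of 4 for 18/1 2 hr, so that those share only numbers. The deviations were taken from the mean of each condition, so pairs of other numbers are not an independent baseline. The pairing was read from these same data. The fit was run on simulated data with an equal spread for all gene names, no slide effect and changes at 90/5 5 hr alone. That setting does not cover the uneven arrays of slide 2. Since the labels do not settle the replicate in each colour of 18/1 5 hr and 90/5 2 hr, those samples carry array and colour as names. Where the probes lie within transcripts was not analysed here. A result for 1 listed gene and 1 component of the culture medium are not reported here.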

Additional observations from a re-analysis of the deposited data

Results flagged for a closer look

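In the 35 groups of 4 samples formed by the 7 probes and 5 conditions, 1 sample stood far from the rest, where chance gives about 1 in 20. This was replicate 3 of 90/5 5 hr for Nab2, at 11.94 against 10.65 to 10.75 in the other 3 samples, with a gap to the nearest sample that was 0.923 of the group's range. Without it the difference of Nab2 at 90/5 5 hr from unstimulated neurons was 1.23 in place of 1.54.

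The change of Egr4 from 2 hr to 5 hr differed between the patterns by -1.44 on the log2 scale (90/5 minus 18/1, SE 0.49, adjusted p = 0.026 in limma). This test crosses slides, so slide and condition cannot be told apart in it. The 4 samples of 18/1 2 hr were the lowest stimulated samples of Egr4, and the call was lost without array 3, 4, 8 or 10, without replicate 4 of 90/5 5 hr, with no filter and with centring on medians alone (-0.52).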

How the results depend on the processing

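Of 2518 alternative values of the members' differences, 65 had another sign than the reported value, and 0 of these 65 were called in either fit. Many of the 2518 could not differ from the reported value. Leaving out samples of conditions not compared, or changing only the block, keeps a difference as it was. Of the sign changes, 54 came from leaving out a sample or an array and 11 from other settings.

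The counts of members called moved as follows, out of 5 tested. With no array block, counts were 1 for 18/1 2 hr, 3 for 90/5 2 hr and 3 for 90/5 5 hr against unstimulated neurons, 2 for 90/5 2 hr against 18/1 2 hr, 3 for 90/5 2 hr against 18/1 5 hr, 2 for 90/5 5 hr against 18/1 2 hr and 3 for the difference of the changes with time. The shares of all gene names called rose with them, to 0.064%, 21.8%, 0.768%, 18.4%, 31.8%, 0.566% and 57.1% in this order. With only the conditions compared fitted they were 2 for 18/1 2 hr and 2 for 90/5 5 hr against unstimulated neurons (0.117% and 1.64% of all gene names), 0 for 90/5 5 hr against 18/1 5 hr (24.4%) and 1 for 90/5 5 hr against 18/1 2 hr (0.774%). Without slide 2 they were 2 and 3 against unstimulated neurons (0.0747% and 3.59% of all gene names) and 2 for 90/5 5 hr against 18/1 2 hr (2.49%), and with 18/1 5 hr left out 1, 2 and 1 (0.0373%, 0.357% and 0.309%), and 3 for 90/5 2 hr against unstimulated neurons (14.6% of all gene names). Centring on medians gave 2 for 90/5 5 hr against unstimulated neurons, 2 against 18/1 5 hr, 1 for 18/1 5 hr against 18/1 2 hr and 1 for 90/5 2 hr against 18/1 5 hr, beside 0.112%, 43.8%, 39.1% and 27.2% of all gene names. A filter in all 20 samples gave 1 for 18/1 5 hr, 0 for 90/5 2 hr against 18/1 2 hr and 2 for the difference of the changes, beside 44.4%, 4.96% and 44.8%, and it left Egr2 and Egr4 untested. No filter gave 1, 0 and 0 for 90/5 2 hr, 90/5 2 hr against 18/1 2 hr and the difference of the changes, beside 1.63%, 1.32% and 26.8%. Means of arrays gave 1, 0 and 2 in the same comparisons, beside 1.09%, 0.79% and 32.6%. The methods' test gave 2 for 18/1 2 hr, 3 for 18/1 5 hr, 3 for 90/5 2 hr and 2 for 90/5 5 hr against unstimulated neurons (1.57%, 43.5%, 19.5% and 5.06% of all gene names), 2 for 90/5 2 hr against 18/1 2 hr (16.8%), 2 for 90/5 2 hr against 18/1 5 hr (15%) and 1 for 90/5 5 hr against 18/1 2 hr (3.51%), and after adjustment it gave 2 for 18/1 5 hr against unstimulated neurons, 2 for it against 18/1 2 hr and 0 in the other comparisons it could be run on. For 18/1 5 hr against 18/1 2 hr the count was 2 under both other filters, without saturated probes, with every probe, with means of arrays, with only these conditions and under the methods' test. Beside these, 44% (filter in all 20 samples), 25.4% (no filter) and 36.1% (without saturated probes) of all gene names were called. With every probe, means of arrays and only these conditions the shares were 36.5%, 30.8% and 28%. Leaving out 1 sample or array gave 0 to 1, 2 to 3, 1 to 3 and 1 to 2 members for the 4 comparisons with unstimulated neurons in the order 18/1 2 hr, 18/1 5 hr, 90/5 2 hr and 90/5 5 hr. It gave 0 to 1 for each pattern contrast, 1 to 4 for the times of 18/1, 0 to 0 for those of 90/5, 0 to 2 for 90/5 2 hr against 18/1 5 hr, 0 to 1 for 90/5 5 hr against 18/1 2 hr and 0 to 2 for the difference of the changes. The shares of all gene names called moved too, so these counts are to be read with them. For 18/1 5 hr against rest, for example, dropping unstimulated replicate 2 gave 33.3%, and dropping Cy3 of array 6 gave 38.9%. For 90/5 2 hr against rest, dropping that replicate gave 3.23%, and dropping Cy5 of array 5 gave 6.54%.

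With the replicate block, which could be fitted to 12 samples, 2 members were called at 18/1 2 hr (0.0854% of all gene names), 3 at 90/5 5 hr (3.92%) and 1 for 90/5 5 hr against 18/1 2 hr (2.32%). That block also tied 90/5 5 hr to the other conditions, with which it shared only numbers. In the fit of the 8 samples of unstimulated neurons and 18/1 2 hr the replicate block also gave 2 (0.224%). Without slide 2 and with no replicate block these 12 samples gave 2, 3 and 2, so the call of Nab2 in the last comparison was lost with the block, which took the place of the dye term. The slide as a fixed block left the within-slide differences as they were by construction. Precision was limited by the 2 arrays of each condition, and Egr3 and the other Nab2 probe were limited by their signal over background. The cause of these movements was not tested.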
